A study of Mus musculus with 18 samples.

Results

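SR proteins and heterogeneous nuclear ribonucleoproteins (hnRNPs) are the main families of proteins that coat nascent RNA and set which exons are joined. The genes described here have a symbol that begins with Srsf or Hnrnp and lacks -ps, the mark of a pseudogene. Their mean count over all libraries was at least 10. This rule gave 31 genes, 11 for SR proteins and 20 for hnRNPs, of the 37991 genes counted. Of 34 genes with such a prefix, the 3 left out had -ps in the symbol, although the annotation types *Srsf3-ps* as protein-coding. *Hnrnpll* and *Hnrnpdl* stand under older symbols in the annotation that matches the counts. All 31 genes passed the filter for testing, a mean of 3 or more normalized counts in any of the 6 groups.

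The RNA came from CD4+ T cells enriched with magnetic beads from the spleen of Tg4-H2u mice, which carry a transgenic TCR for a peptide of myelin basic protein. Mice were 6 to 12 weeks old and of both sexes. Naive mice (N) received PBS and tolerized mice (T) received 7 escalating subcutaneous doses of the peptide 4Y. Cells were taken at rest (N0, T0), 2 h after a final injection of 80 µg of 4Y (NAg, TAg), or after 2 h of culture with 20 ng/mL PMA, a phorbol ester, and 2 µM of the calcium ionophore A23187, together called PI (NPI, TPI). Each of the 6 groups had 3 biological replicates. No culture without PI is among these groups, so culture and PI cannot be told apart.

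Total counts ranged from 10758571 to 24119489 per library and were highest after PI. All 7 T cell markers, among them *Cd4* and *Cd3e*, had at least 508 counts in every library. Their summed level was not even across groups. It was 2461 to 2608 CPM (counts scaled to library size) in N0, 1181 to 1258 in NAg and 1697 to 1866 in NPI. In tolerized cells it was 2372.5 to 2499 in T0, 1562 to 1748 in TAg and 1838 to 2062 in TPI. Y-linked genes were read in all NPI and TPI libraries, in 2 T0 libraries and in 1 TAg library, and in no other library beyond 18 reads. Sex therefore changes together with PI in naive cells. Neutrophil markers were higher in T0 than N0 for 9 of 9 genes, with a summed level of 174 to 313 CPM against 5.44 to 15.2. So were 1 of 8 erythroid and 1 of 9 macrophage markers. In bulk RNA, fewer cells of a type and less RNA per cell cannot be told apart.

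As background, SR proteins bind exonic enhancers through RNA recognition motifs and recruit the spliceosome through domains rich in arginine and serine, whose phosphorylation controls their location and activity. Many hnRNPs oppose them at exons or act on mRNA export, stability and polyadenylation. In T cells, activation changes the splicing of many transcripts, of which the CD45 gene *Ptprc* is the best known. Activation is also followed by a large rise in RNA synthesis.

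Together the 31 genes took 0.895% ± 0.0364 (SD, n = 3) of all counts in N0, 1.21% ± 0.0208 in NAg and 1.13% ± 0.0167 in NPI. In tolerized cells they took 0.781% ± 0.0152 at rest, 1.13% ± 0.0237 after Ag and 1.03% ± 0.0419 after PI. No stimulated library fell within the range of its resting group. The hnRNP genes accounted for most of these counts, with 0.618% in N0 and 0.850% in NAg against 0.278% and 0.356% for the SR genes. This share is taken over the total counts of each library, so it is itself a scaling by total counts.

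**Figure D1:**
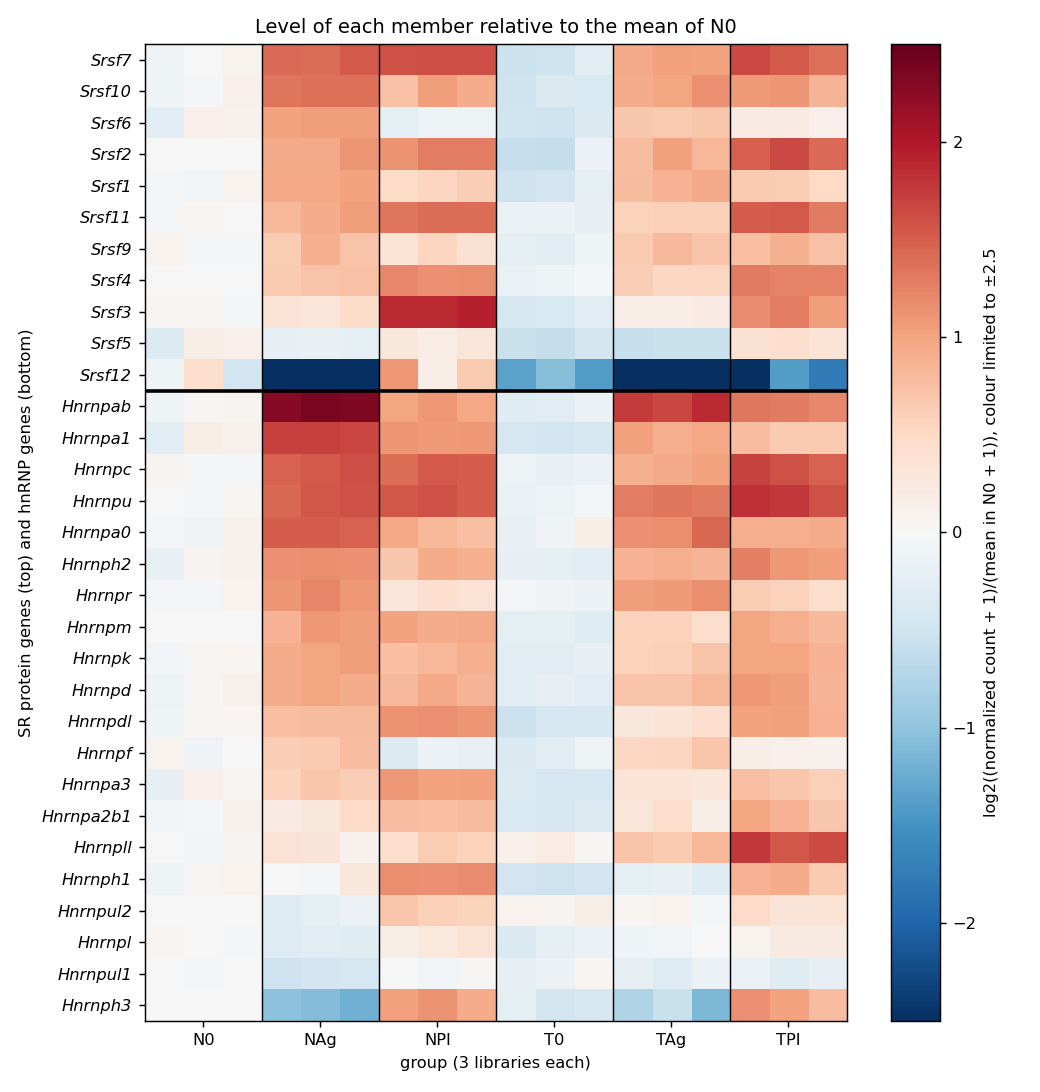
Level of each of the 31 genes in each of the 18 libraries, as the log2 ratio of the normalized count + 1 to the mean of N0 + 1, with SR genes above the line and hnRNP genes below it. Most rows are red in NAg, NPI, TAg and TPI and pale blue in T0, and *Srsf12*, *Hnrnph3*, *Hnrnpl* and *Hnrnpul1* are blue in NAg.

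Ag injection raised most of the 31 genes. In NAg against N0, 24 rose and 6 fell at an adjusted p under 0.05 by edgeR's quasi-likelihood test, while 32.1% of all 17240 genes tested rose and 33.4% fell. The median log2 fold change of the members was 0.94, against 0.00 over all genes. DESeq2, its size factors and a fit of only the groups compared each gave 24 rises and 5 falls. In TAg against T0, 26 rose and 2 fell, against 29.9% and 29.8% of all genes, with a median of 0.84 against −0.05. Both comparisons use separate libraries, and 24 members rose in both, as did 26.1% of all genes. Of the members, 12 rose at least 2-fold in naive and 13 in tolerized cells, against 19.5% and 15.4% of all genes.

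PI treatment gave counts of the same kind. In NPI against N0, 27 members rose and 1 fell, against 28.6% and 32.7% of all genes, and the medians were 0.87 and −0.06. In TPI against T0, 29 rose, against 32% of all genes. None fell, also at an unadjusted p under 0.05 and with DESeq2, against 36.3% of all genes. There the median was 1.23 against −0.10. Both PI comparisons called 27 members higher, as they did 24.5% of all genes. At least 2-fold rises numbered 13 in naive and 22 in tolerized cells, against 15.7% and 18.9%.

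These counts depend on how libraries are scaled. Reads were scaled by TMM, which sets the bulk of genes near no change. With total counts in its place, the median of all genes moved to −0.42 in NAg:N0, −0.40 in TAg:T0, −0.65 in NPI:N0 and −0.92 in TPI:T0. Members higher and lower then numbered 21 and 7, 24 and 5, 20 and 6, and 22 and 7 in the same order. The members' median less that of all genes was 0.94 and 0.95 in NAg:N0 and 1.33 and 1.34 in TPI:T0 under TMM and total counts. Rises and falls below are relative to the bulk of genes in this sense. With sex as a covariate the counts were 24 and 6, 26 and 2, 26 and 0, and 29 and 0. Only T0 and TAg held libraries of both sexes, so this fit takes the effect of sex from tolerized cells. In NPI:N0 it cannot tell sex apart from PI within naive cells.

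**Figure D2:**
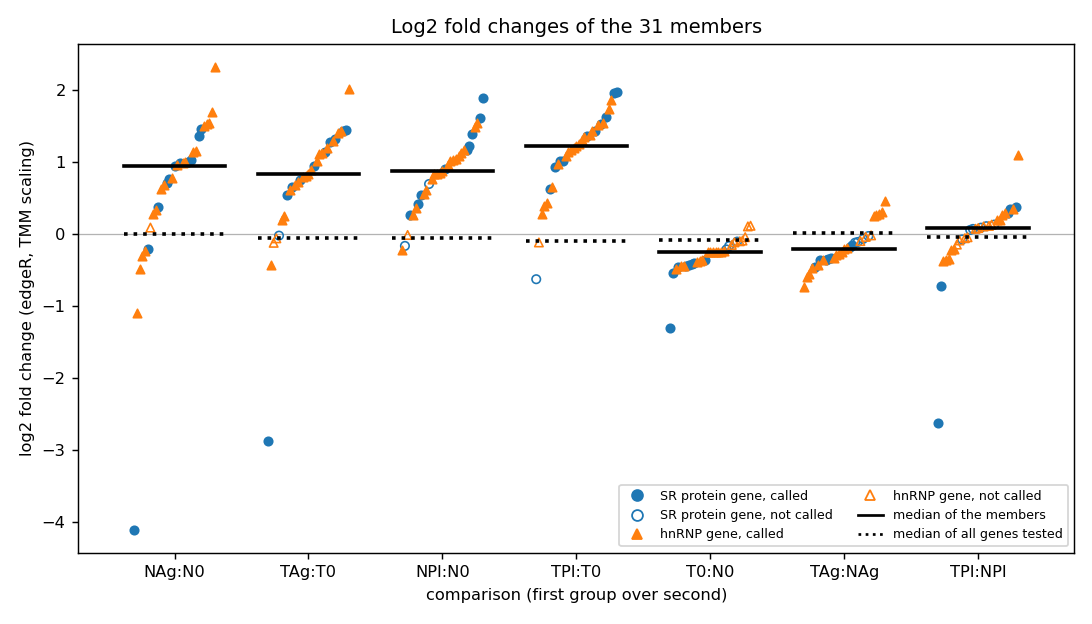
Log2 fold change of each of the 31 genes in 7 comparisons, written as first group over second, with filled symbols for an adjusted p under 0.05. The median of the members (solid line) lies above that of all genes tested (dotted line) in the 4 stimulations and below it in T0:N0 and TAg:NAg.

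Levels within a group were compared as TMM-scaled CPM per kb of annotated exon. Over all libraries *Hnrnpk*, whose protein binds stretches of C, stood highest at 266 CPM per kb. *Hnrnpa1*, a repressor of exon inclusion, followed at 254, then *Hnrnpu* at 194, *Hnrnpa2b1* at 184 and *Srsf7* at 157. In N0 the order differed, with *Hnrnpk* at 176 ± 7.9, *Srsf5* at 148 ± 27.7, *Hnrnpa1* at 143 ± 22.3 and *Hnrnpa2b1* at 142 ± 8.84 (SD, n = 3). The last 3 of these did not differ beyond their spread. *Srsf12* stood lowest, at 0.551 CPM per kb. With the longest transcript as the length, *Hnrnpu* moved from the third place to the first. The value of *Hnrnpa1* is uncertain because its annotated exons cover only 1126 bp and it has near-identical pseudogene copies, which the counting may treat in ways not given in the sources used here.

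Below, values for single libraries are TMM-normalized counts, and fold changes are log2 estimates of the edgeR model ± SE. Among the SR genes, *Srsf7*, whose product binds RNA through a zinc knuckle and serves as an adaptor for mRNA export, rose under every stimulus. It was counted at 2329, 2456 and 2622 in N0, 6612, 6473 and 7156 in NAg and 7440.4, 7544 and 7545 in NPI. In tolerized cells the counts were 1699, 1730.3 and 2028 in T0, 4745, 5000.3 and 4980.3 in TAg and 7757, 7186 and 6425 in TPI. Every stimulated library exceeded every resting one. The changes were 1.45 ± 0.08 with Ag and 1.60 ± 0.08 with PI in naive cells (adjusted p = 2.76e-14 and 1.49e-14), and 1.43 ± 0.08 and 1.97 ± 0.08 in tolerized cells.

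*Srsf3*, the smallest SR protein, which also takes part in mRNA export and polyadenylation, responded mainly to PI. Its counts were 3591, 3566 and 3374 in N0 and only 4443, 4321 and 4840.2 in NAg, but 12836, 12746 and 13426 in NPI. In tolerized cells they were 2624, 2686 and 2912 in T0, 3943, 3957 and 4039.7 in TAg and 7913, 8539 and 7252 in TPI. The changes were 0.37 ± 0.07 with Ag and 1.89 ± 0.07 with PI in naive cells, the largest rise of a member in NPI:N0. With total-count scaling the Ag change of naive cells was −0.034.

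*Srsf6*, an SR protein with a pair of RNA recognition motifs, followed the opposite order. Its normalized counts were 4064, 5363 and 5245 in N0, 9809, 10049 and 10112 in NAg and 4137, 4462 and 4476 in NPI. NAg stood apart from the other naive groups, while NPI and N0 overlapped. The estimates were 1.03 ± 0.08 with Ag and −0.17 ± 0.08 with PI, of which only the first was called. In tolerized cells *Srsf6* went from 3462, 3409 and 3829 in T0 to 7789, 7698 and 7940.1 in TAg and 5614, 5605 and 5332 in TPI, and both rises were called.

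*Srsf10*, a regulator that represses splicing when dephosphorylated, was counted at 1975, 2090.0 and 2319.5 in N0, 5357, 5513 and 5516 in NAg and 3556, 4368 and 4040.5 in NPI. Counts in tolerized cells were 1491, 1660.5 and 1637 in T0, 4029, 4243 and 4704 in TAg and 4456, 4582 and 3854 in TPI. Its rises were 1.36 ± 0.09 with Ag and 0.91 ± 0.08 with PI in naive cells and 1.44 ± 0.09 and 1.43 ± 0.09 in tolerized cells. *Srsf1*, the founding SR protein, rose from 4208, 4136 and 4590.4 in N0 to 8484, 8417 and 8639 in NAg and 5998, 6277 and 6622 in NPI. The tolerized libraries held 3012, 3107 and 3628 counts in T0, 7506, 7858 and 8266 in TAg and 6818, 6717 and 6102 in TPI. Its Ag changes were 0.98 ± 0.08 and 1.28 ± 0.08, and its PI changes 0.55 ± 0.07 and 1.01 ± 0.08, in naive and tolerized cells. With total-count scaling the PI change in naive cells was −0.032.

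*Srsf2*, which acts in exon definition and is a marker of nuclear speckles, was less abundant. It had 451, 447 and 447 counts in N0, 864, 871 and 965 in NAg and 976, 1088 and 1086 in NPI, then 299.9, 296 and 404 in T0, 771, 911 and 800.2 in TAg and 1272, 1404 and 1191 in TPI. The PI response of tolerized cells, 1.95 ± 0.10, was the largest of its 4 responses. *Srsf11* rose from 3529, 3788 and 3636 in N0 to 6525, 6917 and 7551 in NAg and 9277, 9645 and 9647 in NPI. Tolerized cells gave 3271, 3296 and 3182 in T0, 5433, 5514 and 5504 in TAg and 10371, 10569 and 9041 in TPI. Its changes were 0.94 ± 0.07 and 1.38 ± 0.07 in naive and 0.75 ± 0.07 and 1.62 ± 0.07 in tolerized cells. Changes of *Srsf4* were 0.70, 0.66, 1.17 and 1.36, and those of *Srsf9* 0.76, 0.94, 0.42 and 1.01, in NAg:N0, TAg:T0, NPI:N0 and TPI:T0, all of them called. Of the 3580 bp of *Srsf4* exon, 1551 overlap *Gm12992* on the opposite strand, so some of its reads may belong to that gene.

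*Srsf5* and *Srsf12* were the SR genes that did not rise with Ag. *Srsf5* counts were 6313, 9014 and 8829 in N0, 6949, 7074 and 6919 in NAg and 9769, 9158 and 9926 in NPI, and 5457, 5310.0 and 5827, 5415, 5449 and 5459.7 and 10555, 10775 and 10235 in T0, TAg and TPI. The first N0 library was lower than the other N0 libraries and overlapped NAg. The change in NAg:N0 was −0.21 ± 0.09, called by edgeR's test at an adjusted p of 0.0497. In tolerized cells the Ag estimate was −0.02 ± 0.09, which was not called, and the PI change was 0.93 ± 0.09. *Srsf12*, a relative of *Srsf10* that represses splicing, was near the limit of counting. It had 38.6, 57.4 and 29.8 normalized counts in N0, 1.2, 4.7 and 1.1 in NAg and 89.5, 47.3 and 66.2 in NPI, and 15.9, 19.4 and 15.3, 4.4, 0 and 2.05 and 6.46, 15.4 and 11.6 in T0, TAg and TPI. NAg held 6 reads in all against 124 in N0, a ratio of 18.02 for N0 over NAg with a 95% exact interval of 8.05 to 50.1. TAg held 6 reads against 56 in T0, a ratio of 7.69 with an interval of 3.32 to 21.8. These intervals cover counting error only. The fall with Ag was called in both cell states, and neither PI change was called.

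**Figure D3:**
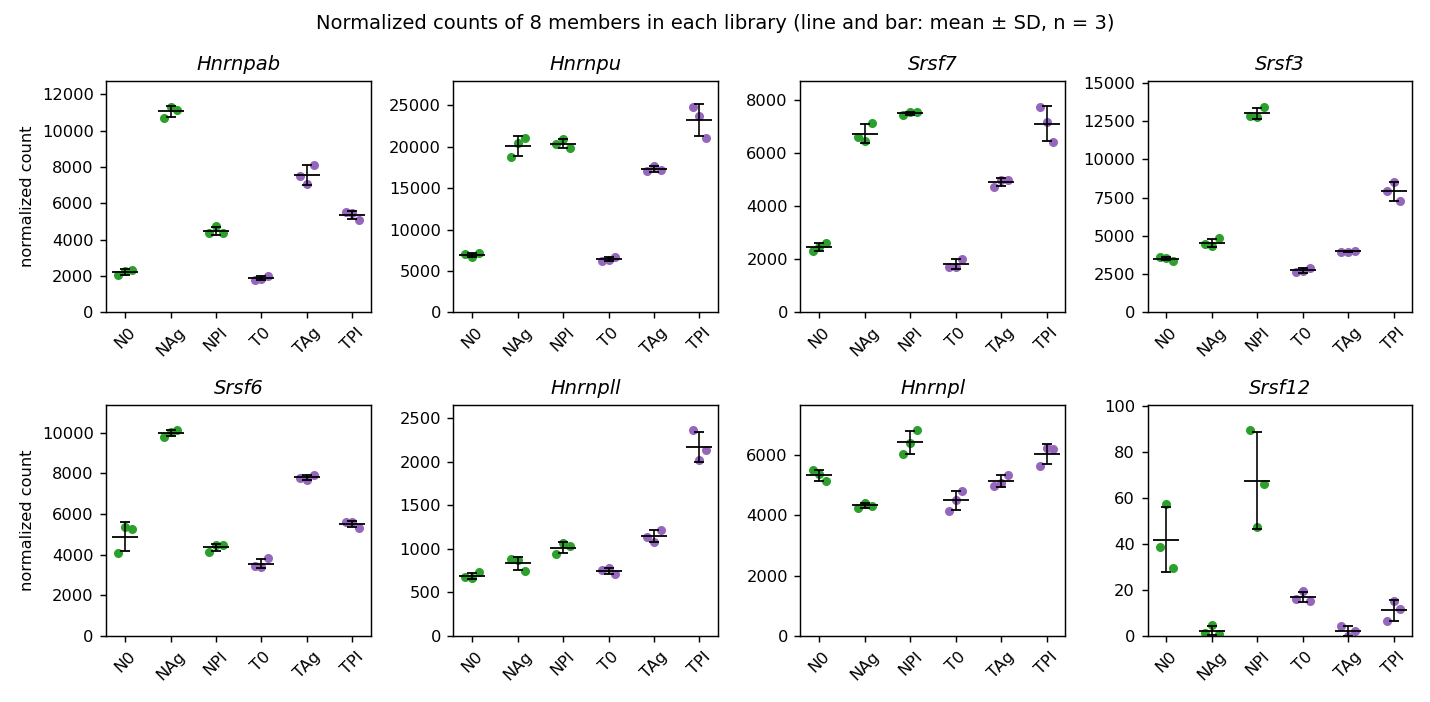
TMM-normalized counts of 8 members in each of the 18 libraries, with the mean and SD of each group of 3 and every axis starting at 0. *Hnrnpab* and *Srsf6* stand highest in NAg, *Srsf3* in NPI and *Hnrnpll* in TPI, whereas *Hnrnpl* is lowest in NAg and *Srsf12* is near 0 in NAg and TAg.

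Among the hnRNP genes, *Hnrnpab*, which encodes a relative of AUF1 that binds RNA and single-stranded DNA, had the largest Ag rise in both cell states. It was counted at 2066, 2257 and 2342 in N0, 10702, 11323 and 11164 in NAg and 4394, 4732 and 4344 in NPI. The tolerized groups had 1806, 1845 and 1994 in T0, 7510.2, 7045 and 8120.4 in TAg and 5536, 5460.4 and 5090.5 in TPI. Ag changed it by 2.32 ± 0.07 in naive cells, 4.98-fold, and by 2.01 ± 0.07 in tolerized cells. PI changed it by 1.01 ± 0.07 and 1.51 ± 0.07. Of its exons, 809 bp are shared with *Agxt2l2* on the opposite strand, and since the strand setting of the counting is not given, some of its reads may belong to that gene.

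The upstream sequences of *Hnrnpab*, *Srsf3* and *Srsf7* are shown because these genes stand for the 3 response patterns, larger with Ag, larger with PI, and large with both. Each runs 250 bases to the base before the RefSeq start of transcription, 5′ to 3′ on the strand of the gene, and was placed on NCBIM37 by an exact match. *Hnrnpab* lies at chr11:51420384-51420633 (minus strand), *Srsf3* at chr17:29169355-29169604 (plus strand) and *Srsf7* at chr17:80606646-80606895 (minus strand). Capitals mark the GC box with the letters GGGCGG, the CCAAT box with those 5 letters, and the TATA box with the letters TATAAA, each read on both strands.
Hnrnpab: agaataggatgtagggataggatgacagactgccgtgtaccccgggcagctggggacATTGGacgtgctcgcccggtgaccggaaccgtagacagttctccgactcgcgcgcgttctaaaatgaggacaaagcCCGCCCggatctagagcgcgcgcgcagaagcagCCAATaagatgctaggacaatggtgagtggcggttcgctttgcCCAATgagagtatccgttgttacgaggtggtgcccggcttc
Srsf3: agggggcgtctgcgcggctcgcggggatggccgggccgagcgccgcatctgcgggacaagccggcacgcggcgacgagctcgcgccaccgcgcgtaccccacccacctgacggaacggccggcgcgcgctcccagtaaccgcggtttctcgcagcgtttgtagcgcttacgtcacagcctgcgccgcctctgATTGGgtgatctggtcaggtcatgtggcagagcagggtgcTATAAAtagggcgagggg
Srsf7: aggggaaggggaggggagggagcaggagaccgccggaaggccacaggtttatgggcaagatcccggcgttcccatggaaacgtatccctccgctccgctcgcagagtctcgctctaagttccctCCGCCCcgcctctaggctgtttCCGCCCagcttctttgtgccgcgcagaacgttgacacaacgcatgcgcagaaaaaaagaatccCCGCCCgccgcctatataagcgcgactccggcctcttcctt
The *Hnrnpab* window held 3 CCAAT boxes and 1 GC box, that of *Srsf3* held 1 CCAAT box and 1 TATA box, and that of *Srsf7* held 3 GC boxes. RefSeq gave 41 windows for 29 of the members, none of them for *Hnrnpll* or *Hnrnpul2*. A GC box was found in 33 of the 41 and in 32.7% of all 32851 windows, a CCAAT box in 20 and 33.8%, and a TATA box in 3 and 12.4%. The E-box CACGTG was in 3 of the 41 and 6.02% of all, the ETS sequence CCGGAAGT in 6 and 2.88%, and the CRE TGACGTCA in 0 and 1.55%. Some windows belong to the same gene and overlap, and a match is a description of the letters.

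*Hnrnpa1* was counted at 1805, 2422 and 2375 in N0, 7241, 7171 and 7007 in NAg and 4732, 4591 and 4653 in NPI. In tolerized cells it had 1652, 1582 and 1624 in T0, 4469.6, 4107 and 4296 in TAg and 3765, 3486 and 3485 in TPI. It rose by 1.70 ± 0.08 with Ag and 1.08 ± 0.08 with PI in naive cells, and by 1.41 ± 0.08 and 1.14 ± 0.08 in tolerized cells. *Hnrnpa0*, an intronless member of the same subfamily that binds AU-rich elements, went from 1853, 1796 and 2053 in N0 to 5399, 5446 and 5256 in NAg and 3711, 3359 and 3201 in NPI. Its Ag changes were 1.498 ± 0.09 in naive and 1.29 ± 0.09 in tolerized cells. *Hnrnpa2b1*, which is also known for sorting RNA, had 7644, 7852 and 8592 counts in N0, 9276, 9798 and 11119 in NAg and 13677, 13466 and 13866 in NPI. It had 6135, 6068 and 6340.5 in T0, 9945, 10890.0 and 8943 in TAg and 15857, 14696 and 12826 in TPI, and its naive changes were 0.33 ± 0.09 with Ag and 0.77 ± 0.09 with PI. *Hnrnpa3* counts were 2246, 2862 and 2710.2, 3879.6, 4216 and 3993 and 5509.9, 5260.5 and 5276 in N0, NAg and NPI, with changes of 0.63 ± 0.07 and 1.04 ± 0.07.

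*Hnrnpu*, which encodes scaffold attachment factor A, a protein that ties RNA to chromatin, rose about as much with either stimulus. It had 7012, 6729 and 7185 counts in N0, 18798, 20455 and 21063 in NAg and 20341, 20929 and 19872 in NPI. Tolerized cells had 6207, 6364 and 6721 in T0, 17043, 17728 and 17214 in TAg and 24840.0, 23743 and 21076 in TPI. The naive changes were 1.53 ± 0.07 and 1.55 ± 0.07, and the difference between NPI and NAg was not called, at 0.02 ± 0.07 (adjusted p = 0.823). *Hnrnpc*, which packages nascent transcripts and binds runs of U, was counted at 2644, 2488 and 2459 in N0, 7072, 7340.0 and 7714 in NAg and 6649, 7332 and 7237 in NPI. For tolerized cells the counts were 2320.1, 2211 and 2298 in T0, 4698, 4862 and 5105 in TAg and 8109.8, 7608 and 7079.6 in TPI. It changed by 1.54 ± 0.07 with Ag in naive and 1.10 ± 0.07 in tolerized cells, and by 1.48 ± 0.07 and 1.74 ± 0.07 with PI.

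*Hnrnpk* went from 6823, 7284 and 7445 in N0 to 13681, 14285 and 14782 in NAg and 12126, 12815 and 13369 in NPI, and from 5883, 6022 and 6193 in T0 to 10710.0, 10878 and 11766 in TAg and 14150.0, 14193 and 13059 in TPI. Its changes were 0.99 ± 0.07, 0.88 ± 0.07, 0.83 ± 0.07 and 1.19 ± 0.07 in NAg:N0, TAg:T0, NPI:N0 and TPI:T0. *Hnrnpd*, or AUF1, which promotes the decay of mRNAs with AU-rich elements, changed by 0.95, 1.01, 0.87 and 1.25 in the same order. The related *Hnrnpdl* had 3450.2, 3838 and 3833 counts in N0, 6249, 6426 and 6404 in NAg and 8058, 8135 and 7967 in NPI, and its changes were 0.78, 0.80, 1.119 and 1.42. *Hnrnpm*, a regulator of alternative exons, had 2633, 2587 and 2634 counts in N0, 4790.5, 5544 and 5428 in NAg and 5244, 4979 and 5058 in NPI, with changes of 1.005, 0.78, 0.96 and 1.16. It shares 1169 bp of exon with *March2* on the same strand. *Hnrnpr* changed by 1.14, 1.19, 0.36 and 0.65. All changes of these genes were called.

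The genes of the hnRNP F and H group, whose products bind runs of G, did not move together. *Hnrnph1* was counted at 7512, 8376 and 8666 in N0, 8108, 8073 and 9918 in NAg and 18310.0, 18152 and 18683 in NPI. N0 and NAg overlapped at an estimate of 0.09 ± 0.08 (adjusted p = 0.369), the only one of the 31 genes not called in NAg:N0, while PI changed it by 1.17 ± 0.08. *Hnrnpf* did the reverse, with 4903, 4374 and 4651 counts in N0, 7105, 7259 and 7978 in NAg and 3669, 4182 and 4068 in NPI, changes of 0.68 ± 0.07 and −0.22 ± 0.07. Its fall was the only one called in NPI:N0 and was not called without the first NPI library (adjusted p = 0.0774), nor with sex or marker scores as covariates. In tolerized cells *Hnrnpf* rose with both stimuli, from 3631, 3823 and 4229 in T0 to 6655, 6727 and 7475 in TAg and 5177, 5056 and 4988 in TPI. *Hnrnph2*, the X-linked gene of the group, went from 788, 937 and 962 in N0 to 1987, 2012 and 1984 in NAg and 1439, 1700.0 and 1657 in NPI. It rose by 1.16, 1.121, 0.84 and 1.37 in the 4 stimulations.

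*Hnrnph3* fell with Ag and rose with PI. Its counts were 568, 563 and 556 in N0, 274, 266 and 245 in NAg and 1145, 1222 and 1072 in NPI, and 474, 409 and 426, 332, 383 and 258 and 1239, 1137 and 955 in T0, TAg and TPI. NAg lay below and NPI above the range of N0, with changes of −1.10 ± 0.12 and 1.03 ± 0.11. Since 2379 of its 3151 bp of exon overlap *Rufy2* on the opposite strand, these values are uncertain.

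*Hnrnpl*, *Hnrnpul1* and *Hnrnpul2* also fell with Ag in naive cells. *Hnrnpl*, which binds CA repeats and represses exons of *Ptprc*, had 5489, 5361 and 5131 counts in N0, 4252, 4417 and 4308 in NAg and 6014, 6394 and 6803 in NPI. In tolerized cells the counts were 4148, 4509 and 4799 in T0, 4976, 5079 and 5334 in TAg and 5629.5, 6214 and 6198 in TPI. Ag changed it by −0.30 ± 0.07 in naive and by 0.19 ± 0.07 in tolerized cells, the latter not called without the first T0 library (0.10, adjusted p = 0.236), the second T0 library or the third TAg library. With PI it changed by 0.27 ± 0.07 and 0.42 ± 0.07. Its rises with Ag in tolerized cells and with PI in both cell states became falls with total-count scaling. They were −0.14 in TAg:T0, −0.31 in NPI:N0 and −0.37 in TPI:T0.

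*Hnrnpul1* and *Hnrnpul2* encode relatives of hnRNP U with roles in RNA processing and the DNA damage response. *Hnrnpul1* had 3064, 2999 and 3062 counts in N0, 2119, 2171 and 2229 in NAg and 3051, 2894 and 3087 in NPI, a change of −0.49 ± 0.07 with Ag. The other 3 stimulations gave estimates from −0.12 to −0.01, none of them called. *Hnrnpul2* had 2239.7, 2238 and 2200.5 counts in N0, 1779, 1877 and 2014 in NAg and 3579, 3378 and 3253 in NPI, with changes of −0.24 ± 0.07 and 0.61 ± 0.07.

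*Hnrnpll*, the paralog of *Hnrnpl* known for driving the exon skipping of *Ptprc* in activated T cells, was highest in stimulated tolerized cells. It had 682, 663 and 729.9 counts in N0, 888, 868 and 750.1 in NAg and 941, 1071 and 1036 in NPI. The tolerized groups had 753, 783 and 709 in T0, 1132, 1084 and 1222 in TAg and 2359, 2021 and 2134 in TPI. T0 and N0 overlapped, whereas TAg and TPI lay above NAg and NPI. The rises were 0.27 ± 0.08 and 0.61 ± 0.08 with Ag and 0.55 ± 0.08 and 1.54 ± 0.08 with PI, in naive and tolerized cells. With total-count scaling the naive estimates were −0.13 with Ag and −0.024 with PI. The Ag rise of naive cells was not called without the first N0 library (0.21, adjusted p = 0.0553) or the second (0.19, adjusted p = 0.0838).

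The 2 stimuli were then compared directly, a test added after the values above had been seen. In naive cells 15 members were higher and 11 lower after PI than after Ag, against 33.5% and 31% of all genes, which is about an even split in both. In tolerized cells 21 were higher and 7 lower, against 31.5% and 32.3%. With total-count scaling these numbers were 13 and 15 in naive and 10 and 14 in tolerized cells. With covariates that score erythroid and myeloid marker genes, they were 5 and 6, and 11 and 3. The myeloid score did not overlap between NPI and NAg or between TPI and TAg. Higher after PI in naive cells were *Hnrnph3* (2.13 ± 0.11), *Srsf3* (1.52 ± 0.07) and *Hnrnph1* (1.08 ± 0.08), and *Srsf12*, which had few reads in NAg. Lower were *Hnrnpab* (−1.30 ± 0.07), *Srsf6* (−1.20 ± 0.08), *Hnrnpf* (−0.91 ± 0.08) and *Hnrnpr* (−0.78 ± 0.07). In tolerized cells *Hnrnph3* stood at 1.78 ± 0.11, *Srsf3* at 0.99 ± 0.07, *Hnrnph1* at 1.06 ± 0.08 and *Srsf12* at 2.25 ± 0.62. There *Hnrnpab* was at −0.50 ± 0.07, *Srsf6* at −0.50 ± 0.08, *Hnrnpf* at −0.45 ± 0.07 and *Hnrnpr* at −0.54 ± 0.07. These genes were picked by the size of the naive difference. The share of all genes called with the same sign in both cell states was not computed. PI was given in culture and Ag in the mouse, and Y-linked genes were read in all NPI libraries but in no NAg library beyond 18 reads, so these differences cannot be told apart from that of the stimulus.

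**Figure D4:**
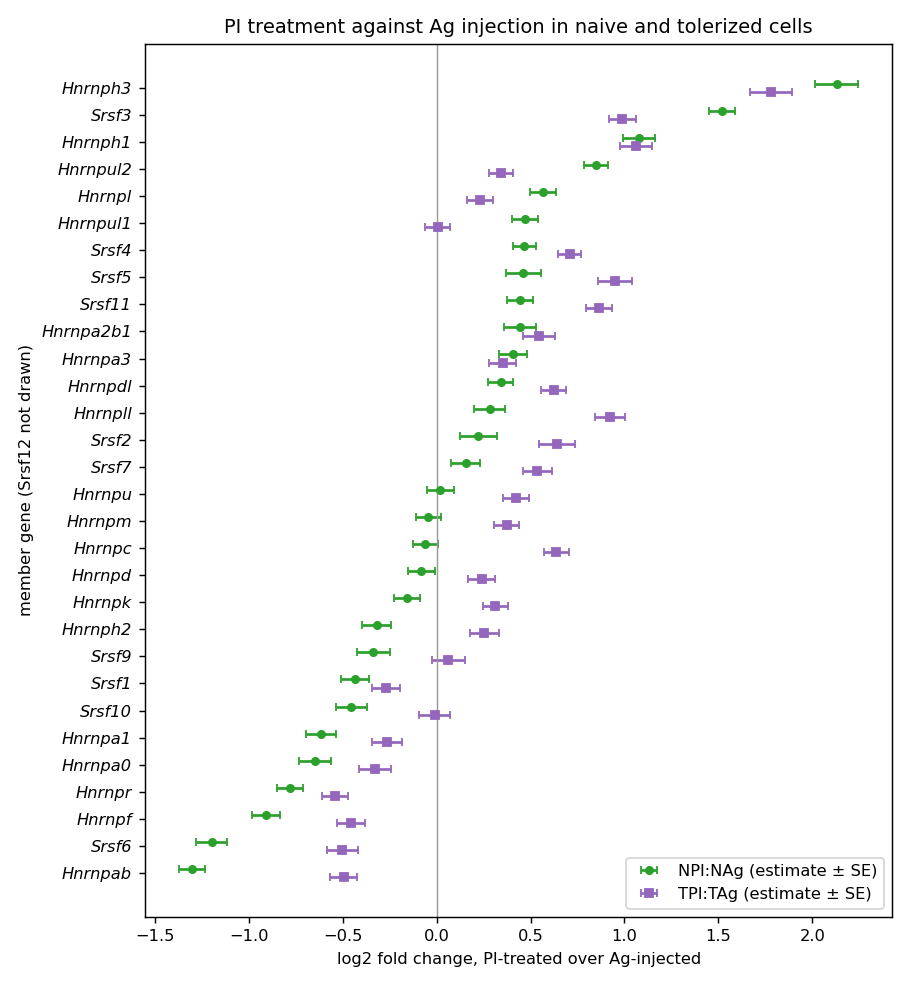
Log2 fold change of 30 members between PI-treated and Ag-injected cells, in naive (circles) and tolerized (squares) cells, with bars for the SE. *Hnrnph3*, *Srsf3* and *Hnrnph1* lie farthest to the right in naive cells, at 2.13, 1.52 and 1.08, and *Hnrnpab* and *Srsf6* farthest to the left, at −1.30 and −1.20.

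At rest, members were lower in tolerized than in naive cells. In T0 against N0, 21 fell, against 12% of all genes. None rose, also at an unadjusted p under 0.05 and with DESeq2, against 8.42% of all genes. The changes were small, with a median of −0.25 against −0.08 over all genes, and only *Srsf12* fell more than 2-fold. With covariates that score erythroid and myeloid marker genes, no member was called, 9 being lower and 1 higher at an unadjusted p under 0.05, and the median was −0.21. With sex as a covariate 12 members fell, with only N0 and T0 in the fit 14 fell and 1 rose, and with total counts 13 fell and 1 rose. The myeloid score was −0.55 to −0.21 in N0 and 1.30 to 1.70 in T0. A fit with this covariate can therefore hardly tell the score apart from the tolerized state. Neutrophil markers moved with the tolerized state, and their part in these differences was not tested.

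The members with the largest falls at rest after *Srsf12* (−1.30 ± 0.36) were *Srsf5* (−0.54 ± 0.09), *Hnrnph1* (−0.49 ± 0.08), *Srsf6* (−0.46 ± 0.08) and *Hnrnpdl* (−0.45 ± 0.07). *Hnrnpdl* had 2549, 2779 and 2809 counts in T0, below every N0 library, and *Hnrnph1* had 5848, 5741 and 5884. *Srsf1*, *Srsf3*, *Srsf7* and *Hnrnpa1* differed by −0.41, −0.36, −0.44 and −0.44, and *Hnrnpk* and *Hnrnpl* by −0.25 and −0.25. With covariates that score marker genes the estimate for *Srsf12* turned to 0.12, and its fall was also not called with sex as a covariate, without the second N0 library (adjusted p = 0.0953) or without the first T0 library (adjusted p = 0.0535). That of *Hnrnpl* was not called without the first T0 library (adjusted p = 0.0782). *Hnrnpll* (0.11 ± 0.08) and *Hnrnpul2* (0.10 ± 0.07) were the only members with an estimate above 0, and neither was called.

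After Ag, 19 members were lower and 5 higher in TAg than NAg, against 18.5% and 20.9% of all genes, with medians of −0.21 and 0.01. The largest falls were *Hnrnpa1* (−0.73 ± 0.08), *Hnrnpc* (−0.59 ± 0.07), *Hnrnpab* (−0.55 ± 0.07), *Hnrnpm* (−0.48 ± 0.07) and *Srsf7* (−0.46 ± 0.08). Each TAg library was below each NAg library for all 5, which were picked by the size of this same change. The libraries of *Srsf1*, at −0.11, did not overlap either, and the share of all genes without overlap was not computed. *Hnrnpm* had 3883, 3907 and 3530.5 counts in TAg. The 5 members that were higher were *Hnrnpll* (0.46 ± 0.08), *Hnrnph3* (0.31 ± 0.12), *Hnrnpul2* (0.28 ± 0.07), *Hnrnpul1* (0.26 ± 0.07) and *Hnrnpl* (0.25 ± 0.07). Of these, *Hnrnph3* overlapped between the groups and was not called without the second TAg library (0.17, adjusted p = 0.299), nor without the second or the third NAg or the first TAg library. *Hnrnpul1* had 2621, 2449 and 2734 counts in TAg and *Hnrnpul2* 2305, 2381 and 2194. *Srsf3* (−0.19 ± 0.07) was called in the fit of all libraries and lost the call without the third NAg library or any TAg library, *Hnrnpk* was called at −0.36 ± 0.07, and *Srsf1* (−0.11 ± 0.07) was not called. Every called member changed less than 2-fold. With total counts 8 were lower and 5 higher, and with marker scores 10 and 3. All 9 neutrophil markers were higher in TAg, with a summed level of 172 to 306 CPM against 9.24 to 24.6 in NAg. Of 9 macrophage markers 6 were lower and 1 higher in TAg, although their summed level was 78.8 to 113 CPM against 41.8 to 152, and 1 of 8 erythroid markers was higher. Myeloid scores were −0.31 to 1.06 in NAg and 1.18 to 1.55 in TAg, so the covariates can hardly be told apart from the cell state. The part of these markers in the differences between TAg and NAg was not tested.

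After PI the members were split, with 9 higher and 7 lower in TPI than NPI, against 18.2% and 19.7% of all genes. *Hnrnpll* stood apart at 1.10 ± 0.08 (adjusted p = 2.4e-10), or 2.14-fold. Smaller rises were those of *Srsf9* (0.37 ± 0.09), *Hnrnpf* (0.35 ± 0.07), *Srsf6* (0.34 ± 0.08) and *Srsf2* (0.29 ± 0.10), the last not called without the first NPI library (adjusted p = 0.067) or the second TPI library (adjusted p = 0.0999). *Srsf9* had 423, 486 and 439 counts in NPI and 568, 620.1 and 556 in TPI. The largest falls were *Srsf12* (−2.62 ± 0.37), *Srsf3* (−0.72 ± 0.07), *Hnrnpa1* (−0.38 ± 0.08), *Hnrnpa3* (−0.36 ± 0.07) and *Hnrnph1* (−0.35 ± 0.08). *Hnrnph1* and *Hnrnpa3* had 14963, 15555 and 12813 and 4385, 4209 and 3945 counts in TPI. *Srsf1* (0.06), *Srsf7* (−0.08), *Hnrnpk* (0.11) and *Hnrnpl* (−0.09) were not called. With total counts 4 were higher and 11 lower, and with marker scores 1 and 1, although the myeloid score did not overlap between NPI and TPI. Of 9 neutrophil markers 6 were higher in TPI, at 21.4 to 38.6 CPM in sum against 3.82 to 10.47 in NPI.

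Whether tolerized and naive cells respond differently was tested as a difference of the fold changes. For PI, the response of tolerized cells was more positive for 17 members and less so for 2, against 12.7% and 7.52% of all genes, with a median difference of 0.31 against −0.04. T0 and N0 enter both this test and T0:N0, so the 2 are not independent. *Hnrnpll* had the largest difference, 0.98 ± 0.11 (adjusted p = 1.35e-06), followed by *Srsf6* (0.80 ± 0.11), *Srsf2* (0.72 ± 0.14), *Srsf5* (0.67 ± 0.13) and *Hnrnpf* (0.61 ± 0.11). *Srsf9*, *Hnrnph2*, *Srsf10*, *Hnrnpab* and *Srsf1* came next, at 0.59, 0.54, 0.52, 0.50 and 0.46. *Srsf3* (−0.36 ± 0.10) and *Hnrnpul2* (−0.33 ± 0.09) rose less in tolerized cells. With total counts 9 members were called more positive and 4 less, and with sex as a covariate 14 and 2. By Y-linked reads N0 and NPI differed in sex throughout, whereas T0 was mixed and TPI was not. Sex thus enters the responses unequally and cannot be told apart from the cell state here.

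**Figure D5:**
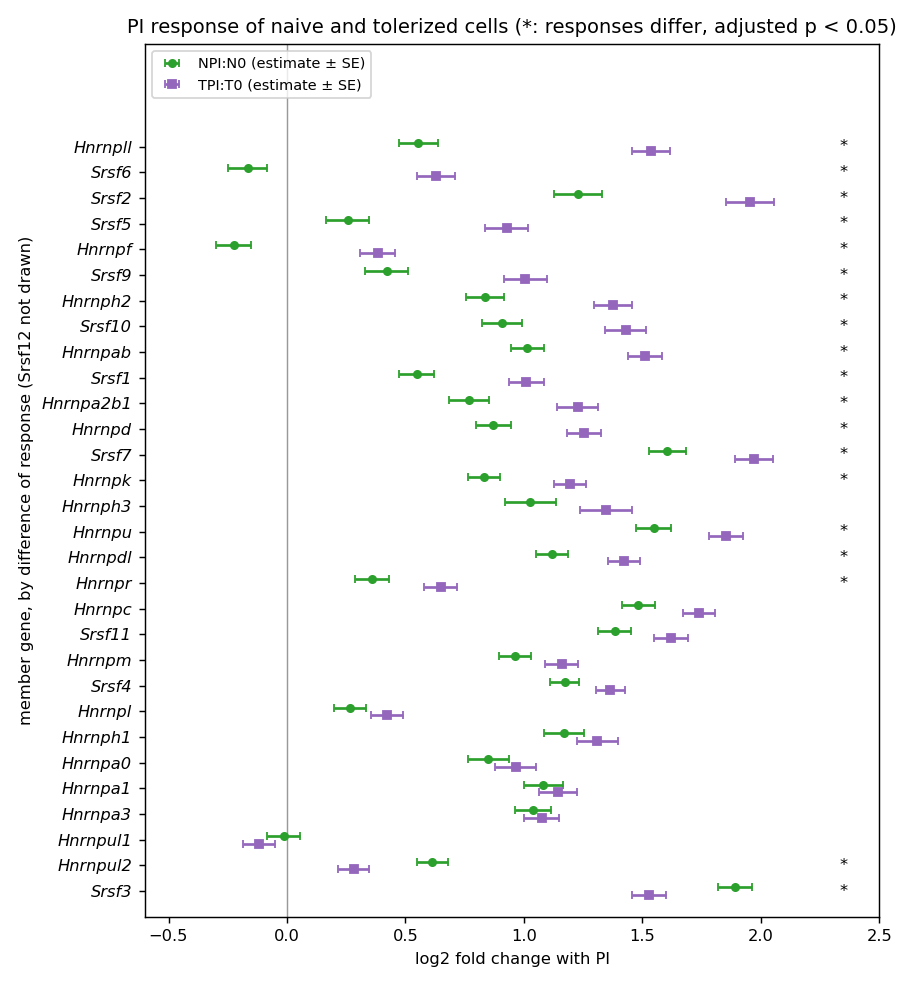
Log2 fold change with PI in naive (NPI:N0, circles) and tolerized (TPI:T0, squares) cells for 30 members, ordered by the difference of the responses, with bars for the SE and stars where the responses differed at an adjusted p under 0.05. *Hnrnpll*, at 0.55 and 1.54, is at the top, and *Srsf3*, at 1.89 and 1.53, at the bottom.

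For Ag, 6 members responded more positively and 2 less so in tolerized cells, against 14.6% and 7.09% of all genes. *Hnrnph3* (0.67 ± 0.16), *Hnrnpl* (0.49 ± 0.10), *Hnrnpul1* (0.36 ± 0.10), *Hnrnpa2b1* (0.36 ± 0.12), *Hnrnpll* (0.34 ± 0.12) and *Srsf1* (0.30 ± 0.11) were the former, and *Hnrnpc* (−0.44 ± 0.10) and *Hnrnpab* (−0.31 ± 0.10) the latter. *Hnrnph3*, *Hnrnpl* and *Hnrnpul1* are genes that Ag lowered in naive cells and lowered less, raised or left without a call in tolerized cells. These shares of members are near those of all genes. Without the third N0 library 3 members were more positive and 3 less so, and without 1 library the numbers ranged from 3 to 7 and from 1 to 3. Both together fell from 8 to 5 without the second NAg or the second TAg library. *Hnrnpa2b1*, *Hnrnpll*, *Hnrnpab* and *Srsf1* each lost the call in at least 5 of the 12 fits with 1 library left out.

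Other parts of the splicing machinery were followed with lists of genes. Counts for these lists are to be read against the 32.1% of all genes that rose and 33.4% that fell in NAg:N0, and the 28.6% and 32.7% in NPI:N0. Of 29 tested proteins of the U snRNPs, the particles that recognize splice sites, 24 rose and 2 fell in NAg:N0, while 17 rose and 6 fell in NPI:N0. Their medians were 1.09 and 0.23. *Snrpd1* (2.63 ± 0.11), *Snrpa* (2.26 ± 0.11) and *Snrpa1* (2.22 ± 0.07) rose most with Ag, and *Snrnp25* (−1.70 ± 0.26) and *Prpf6* (−0.42 ± 0.08) fell. With PI, *Snrpd1* (1.62 ± 0.11), *Snrpa1* (1.14 ± 0.07) and *Snrnp35* (1.11 ± 0.21) rose most and *Snrnp25* (−0.99 ± 0.23), *Prpf31* (−0.88 ± 0.09) and *Snrpd3* (−0.68 ± 0.10) fell most. Between NPI and NAg, 19 of the 29 were lower after PI and 3 higher, against 31% and 33.5% of all genes. In TAg against NAg 22 of the 29 were lower, against 18.5%.

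Among 16 branch point and 3′ splice site factors, 13 rose and 2 fell with Ag and 10 rose and 4 fell with PI in naive cells, the falls with PI being near the share of all genes. *Sf3b4* (1.79 ± 0.09), *Sf3b3* (1.69 ± 0.07) and *U2af1* (1.51 ± 0.07) led with Ag, where *U2af1l4* (−0.99 ± 0.09) and *Sf3b1* (−0.21 ± 0.08) fell. With PI, *Rbm17* (1.49 ± 0.08), *Sf1* (1.46 ± 0.07) and *U2af1* (1.45 ± 0.07) led, and *U2af1l4* (−0.53 ± 0.09), *Sf3a1* (−0.41 ± 0.08) and *Sf3a3* (−0.39 ± 0.08) fell most. Of 16 SR-related proteins 13 rose and 2 fell with Ag, and 13 rose and 1 fell with PI. *Tra2a*, a splicing activator, rose by 1.58 ± 0.10 and 2.32 ± 0.10, *Scaf4* (1.47 ± 0.07) and *Rbm25* (1.13 ± 0.07) followed with Ag, and *Tra2b* (1.40 ± 0.08) and *Srrm1* (1.39 ± 0.06) with PI. *Acin1* (−0.25 ± 0.07) and *Rbm39* (−0.20 ± 0.08) fell with Ag and *Scaf11* (−0.25 ± 0.07) with PI.

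Of 10 genes for the kinases that phosphorylate SR proteins and their import receptor, 2 rose and 3 fell in NAg:N0, which is near the shares of all genes, and 6 rose and 2 fell in NPI:N0. *Clk1*, a nuclear kinase of SR proteins, fell by 1.21 on the log2 scale with Ag and rose by 1.98 ± 0.09 with PI. The import receptor gene *Tnpo3* (1.32 ± 0.07) and the kinase gene *Prpf4b* (0.68 ± 0.07) rose with Ag, and *Srpk2* (−0.53 ± 0.09) and *Clk4* (−0.22 ± 0.09) fell. With PI *Clk3* (1.53 ± 0.07) and *Dyrk1a* (0.91 ± 0.06) rose, and *Srpk1* (−0.39 ± 0.07) and *Srpk2* (−0.33 ± 0.09) fell. Among 31 other splicing regulators that bind RNA, 19 rose and 7 fell with Ag and 17 rose and 6 fell with PI. *Syncrip* (2.14 ± 0.09), the closest relative of *Hnrnpr*, rose most with Ag, with *Pcbp1* (1.64 ± 0.08) and *Raver1* (1.63 ± 0.08). *Ptbp1* (2.08 ± 0.07), also known as hnRNP I, and *Ewsr1* (1.10 ± 0.06) were among those that rose most with PI. *Tia1* fell with both (−1.500 ± 0.07 and −1.72 ± 0.07), *Celf2* (−1.49 ± 0.12) and *Rbm5* (−1.25 ± 0.09) with Ag, and *Fubp3* (−1.52 ± 0.11) and *Rbm10* (−0.65 ± 0.10) with PI.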

How the data were processed

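RNA-seq was done on 18 libraries of rRNA-depleted RNA. Paired-end reads were mapped by the authors to mm9 (NCBIM37) with TopHat2 2.1.1, counted per Ensembl gene with HTSeq 0.9.1 and deposited as raw counts per library, so the values are counts without normalization. Strand and overlap settings are not given in the sources used here. Symbols, positions and overlaps came from an NCBIM37 annotation for 37205 of 37991 genes, and upstream sequences from RefSeq's table of promoters.

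Here, genes with a mean of 3 or more normalized counts in any of the 6 groups were tested with edgeR 4.0.16 (R 4.3.3). The quasi-likelihood test was robust, with TMM scaling and 1 mean for each of 6 groups. Adjusted p-values are Benjamini-Hochberg values over 17240 genes, and a gene is called at an adjusted p under 0.05. The scripts were tested on simulated data. Alternatives were DESeq2 1.42.0, its size factors, total counts, a 2-fold limit, no filter, only the groups compared, the replicate number as a block, sex, marker scores, the longest transcript, and each library left out. Total counts of 10758571 or more per library leave counting error small for every member but *Srsf12*. Members, lists and tests were chosen with earlier results of these data known. Named are the 5 largest called rises and falls per comparison, up to 10 differences of response, and *Srsf1*, *Srsf3*, *Srsf7*, *Hnrnpa1*, *Hnrnpk*, *Hnrnpll* and *Hnrnpl*, and from each list the 3 largest called changes per direction. Values of other members are given as well, and 1 change that the rule selects from the lists is not reported here.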

Additional observations from a re-analysis of the deposited data

Results flagged for a closer look

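The responses of tolerized and naive cells differed by edgeR's interaction test for 8 members with Ag and 19 with PI, at an adjusted p under 0.05. Of all genes tested 14.6% were more and 7.09% less positive with Ag, near the shares of members, and 12.7% and 7.52% with PI. Values are the tolerized less the naive log2 fold change ± SE, with 3 libraries in each of the 4 groups. For Ag they were 0.67 ± 0.16 for *Hnrnph3*, 0.49 ± 0.10 for *Hnrnpl*, 0.36 ± 0.10 for *Hnrnpul1*, 0.36 ± 0.12 for *Hnrnpa2b1*, 0.34 ± 0.12 for *Hnrnpll*, 0.30 ± 0.11 for *Srsf1*, −0.31 ± 0.10 for *Hnrnpab* and −0.44 ± 0.10 for *Hnrnpc*.

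For PI, SR genes with a more positive response in tolerized cells were *Srsf6* (0.80 ± 0.11), *Srsf2* (0.72 ± 0.14), *Srsf5* (0.67 ± 0.13), *Srsf9* (0.59 ± 0.13), *Srsf10* (0.52 ± 0.12), *Srsf1* (0.46 ± 0.11) and *Srsf7* (0.36 ± 0.11). The hnRNP genes were *Hnrnpll* (0.98 ± 0.11), *Hnrnpf* (0.61 ± 0.11), *Hnrnph2* (0.54 ± 0.11), *Hnrnpab* (0.50 ± 0.10), *Hnrnpa2b1* (0.46 ± 0.12), *Hnrnpd* (0.38 ± 0.10), *Hnrnpk* (0.36 ± 0.10), *Hnrnpu* (0.31 ± 0.10), *Hnrnpdl* (0.30 ± 0.09) and *Hnrnpr* (0.29 ± 0.10). *Srsf3* (−0.36 ± 0.10) and *Hnrnpul2* (−0.33 ± 0.09) differed in the other direction. *Hnrnpab* is on both lists with opposite signs.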

How the results depend on the processing

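Counts of called members, both directions together, stayed within 1.5 times those reported under DESeq2, DESeq2's size factors, no filter on low counts and fits of only the groups compared. A fold of at least 2 as a further condition left 14 of 30 members in NAg:N0, 14 of 28 in TAg:T0, 13 of 28 in NPI:N0, 1 of 21 in T0:N0, 0 of 24 in TAg:NAg, 2 of 16 in TPI:NPI, 0 in both differences of response, 6 of 26 in NPI:NAg and 3 of 28 in TPI:TAg. Marker scores as covariates gave 0 in T0:N0, 13 in TAg:NAg, 2 in TPI:NPI, 4 in the difference of Ag responses, 11 in NPI:NAg and 14 in TPI:TAg. Sex as a covariate gave 12 in T0:N0, and total counts 13 in TAg:NAg. Between the groups of T0:N0, TAg:NAg, TPI:NPI, NPI:NAg and TPI:TAg the myeloid score did not overlap. Fits with marker scores can hardly tell it apart from the group there. The cause of these shifts was not tested.

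With 1 library left out, between 5 and 9 members differed in Ag response, with 5 without the second NAg or the second TAg library. By direction, 3 to 7 were more and 1 to 3 less positive, with 3 and 3 without the third N0 library. The other counts in both directions together stayed within 1.5 times, while falls numbered 0 to 2 in NPI:N0 and 0 to 1 in TPI:T0. Total counts turned the median over the members to −0.035 in TPI:NPI, −0.020 in NPI:NAg and −0.12 in TPI:TAg. They also turned *Srsf3* (−0.034) and *Hnrnpll* (−0.13) in NAg:N0, *Hnrnpl* in TAg:T0 (−0.14), NPI:N0 (−0.31) and TPI:T0 (−0.37), and *Srsf1* (−0.032) and *Hnrnpll* (−0.024) in NPI:N0. Marker scores turned *Srsf12* in T0:N0 to 0.12. The other named changes kept their sign in every fit.

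No pairing of the libraries by the replicate numbers in the labels was seen. Correlations of deviations between equal numbers ranged from −0.195 to 0.110, and 2 of 45 passed 0.1. Such correlations cannot exclude a pairing. With the number as a block, 29 members were called in NAg:N0, 28 in TAg:T0, 29 in TPI:T0 and 21 in T0:N0, and all 100 named changes kept their call. Under DESeq2 3 members were more and 4 less positive in Ag response in tolerized cells, and with its size factors 3 and 3, against 6 and 2. Counts are per gene and do not show isoforms, and for *Srsf12* few reads limit the precision.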
